A study of Mus musculus with 10 samples.

Results

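This account follows 10 transcription factor genes that shape dendritic cell lineages (Zbtb46, Id2, Spi1, Tcf4, Nfil3, Klf4, Bcl6, Zeb1, Zeb2 and Runx3), taken by name from the gene tables of mouse bone marrow-derived dendritic cells. They are 10 of the 41813 genes listed, and all 10 passed the filter on low counts that left 13946 genes for testing. The RNA-seq comparison set 3 libraries titled activated against 3 titled non-activated, both from cells recorded as CD11c+ with high MHC class II. The design text says that dendritic cells of both groups were given LPS, a bacterial ligand of TLR4, and differed in whether they had been loaded with the ovalbumin peptide OVA323-339 before 24 h with CD4+ OT-II T cells, whose transgenic receptor recognises that peptide. The sample labels instead record LPS for the activated cells and no stimulation for the others, so the groups are called by their titles here. Strain, age and whether replicates were separate animals or cultures were not given, so the spread behind each p-value is that of these libraries and may be technical. The 4 ATAC-seq samples of the series, 2 per group, were not analysed here.

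Dendritic cells arise in the bone marrow as conventional type 1 cells, which excel at cross-presentation, conventional type 2 cells, which mainly prime helper T cells, and plasmacytoid cells, which make type I interferon. PU.1, the product of Spi1, sets up the myeloid programme, and Zbtb46 marks the conventional branch. E proteins such as Tcf4 bind E-box DNA and maintain plasmacytoid cells, whereas Id2 pairs with E proteins, blocks their DNA binding and favours conventional cells. Nfil3 and Bcl6 are repressors that support type 1 cells in mice, Zeb2 represses Id2 and favours plasmacytoid and type 2 cells, and Klf4 and Runx3 act in subsets of type 2 cells, Runx3 also in Langerhans cells. Cultures of bone marrow also yield monocyte-derived cells, so bulk RNA from them describes a mixture.

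In activated cells Zbtb46 and Tcf4 rose, by 2.00-fold and 1.82-fold, and Nfil3 fell to 0.408 times its non-activated level. The other 7 factors were not called by edgeR's quasi-likelihood test (Benjamini-Hochberg adjusted p, threshold 0.05), with log2 fold changes from -0.59 (Bcl6) to 0.34 (Id2). Called members were thus 3 of 10, which is close to the 27.6% of all genes tested that were called (15.9% higher and 11.7% lower), so the number called says nothing particular of these factors. The median log2 fold change of the 10 was -0.17, against 0.01 over all genes tested. With the replicate number added to the test as a block, Id2, Bcl6 and Zeb1 were called too. Calls over all genes then rose as well, to 2787 higher and 2397 lower.

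Libraries held 21338012 to 27404937 expected counts, and each member had at least 351 counts in each library. The replicate 1 libraries of both groups stood apart in T cell receptor genes. Trac, the constant region of the T cell receptor alpha chain, was at 41160 TPM (transcripts per 1000000, a level scaled by transcript length) in activated replicate 1 and 41069 TPM in non-activated replicate 1, but between 14.4 and 160 TPM in the other 4 libraries. Trbc2, of the beta chain, was at 297 and 292 TPM in these libraries and between 1.51 and 5.57 TPM in the others. Cd3e, which T cells need to display that receptor, was at most 2.98 TPM anywhere. Values without the replicate 1 libraries are given below for Zbtb46, Spi1, Tcf4 and Klf4, and where they change the call of another gene named. For the other lineage factors the log2 fold change without them was 0.26 (Id2), -1.29 (Nfil3) and -0.57 (Bcl6). It was -0.32 for Zeb1, -0.21 for Zeb2 and -0.24 for Runx3, and no lineage factor changed its call. Of 9 dendritic cell and antigen presentation genes, all tested, 3 were called higher and 1 lower, and their levels differed widely. The MHC class II chaperone Cd74 was abundant, averaging 9372 TPM in activated and 10728 TPM in non-activated cells. The receptor gene Flt3 was at 8.24 and 8.35 TPM. Itgax, which encodes CD11c, ranged from 77.7 to 181 TPM in activated and from 112 to 177 TPM in non-activated libraries. Its level was lowest in replicate 1 of each group.

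**Figure D1:**
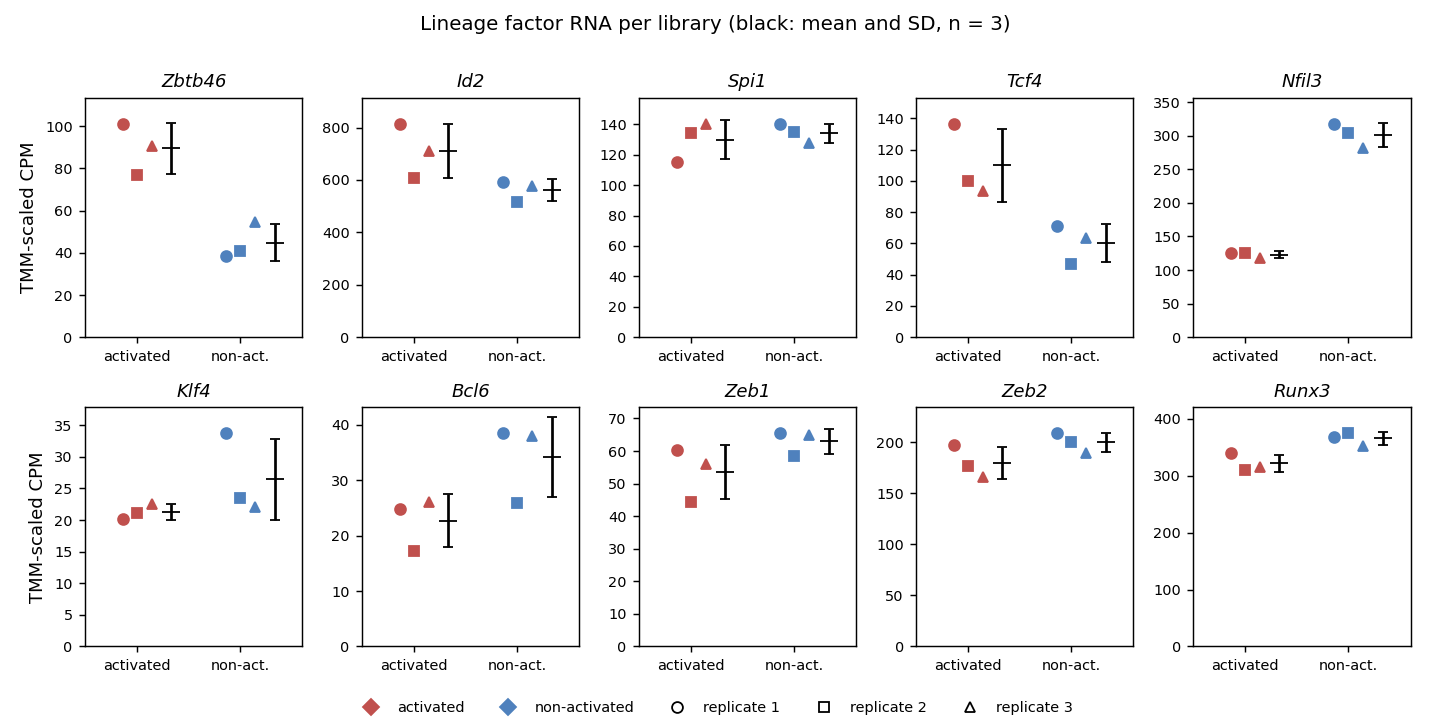
TMM-scaled CPM of each lineage factor in the 6 libraries, activated on the left and non-activated on the right of each panel, each axis starting at 0; symbols give the replicate number and black bars the mean and SD of 3 libraries. The groups do not overlap for Zbtb46, Tcf4, Nfil3, Id2 and Runx3.

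Zbtb46, a zinc finger repressor used as a marker of conventional dendritic cells and their precursors, stood at 101, 76.7 and 90.6 CPM (counts per 1000000 of a library size scaled by edgeR's TMM method) in activated replicates 1 to 3, against 38.5, 41.0 and 54.8 CPM in the non-activated ones. All activated libraries lay above all non-activated ones. Means were 89.5 ± 12.3 and 44.8 ± 8.80 CPM (SD, n = 3 each), a log2 fold change of 1.00 ± 0.15 (SE; edgeR adjusted p = 0.00201). It passed under each of the 17 alternatives tried, with log2 fold changes between 0.79 and 1.17. The lowest was without the replicate 1 libraries of both groups (edgeR adjusted p = 0.00907). Of all genes tested, 11.3% had a larger change in either direction. On GRCm38 the RefSeq gene spans chromosome 2 from 181371009 to 181493262 and overlaps Zgpat and Lime1. Strand was not stated to have been kept, so reads from shared stretches cannot be told apart. Zgpat was between 60.5 and 66.1 CPM over the 6 libraries, and Lime1 between 10.2 and 16.2 CPM in activated and 16.6 and 18.9 CPM in non-activated libraries.

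Spi1 encodes PU.1, the ETS-family factor required early in myeloid and dendritic cell development, on chromosome 2 from 91082374 to 91115759. Its level was 116, 134 and 140 CPM in activated cells and 140, 135 and 128 CPM in non-activated cells. These ranges overlapped, and the means of 130 ± 12.9 and 134 ± 6.29 CPM (SD, n = 3 each) differed by a log2 fold change of -0.05 (95% interval -0.26 to 0.16; edgeR adjusted p = 0.754). Without the replicate 1 libraries of both groups the sign turned, to 0.05. Spi1 was therefore the member with the smallest difference, and the interval leaves room for changes of either sign.

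Id2, the inhibitor of E proteins (chromosome 12, 25093799 to 25096092 on GRCm38), was the most abundant factor on either scale. It reached 814, 608 and 712 CPM in activated cells, against 593, 515 and 577 CPM in non-activated cells. On this scale the lowest activated library lay just above the highest non-activated one, whereas on TPM activated replicate 2 (825 TPM) lay just below non-activated replicate 3 (830 TPM). Means of 712 ± 103 and 561 ± 41.2 CPM (SD, n = 3 each) gave a log2 fold change of 0.34 ± 0.12 (SE), which did not pass (edgeR adjusted p = 0.0755). It was called with the replicate number as a block (edgeR adjusted p = 0.0107), in DESeq2 (adjusted p = 0.0396) and without activated replicate 2 (edgeR adjusted p = 0.0408), within 0.0107 to 0.267 over all alternatives.

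Tcf4 encodes E2-2, the E protein that plasmacytoid cells depend on. Activated libraries had 137, 100 and 93.3 CPM, while non-activated libraries had 70.9, 47.1 and 63.6 CPM. The groups did not overlap, although activated replicate 1 was well above the other activated libraries. Means were 110 ± 23.3 and 60.5 ± 12.2 CPM (SD, n = 3 each), a log2 fold change of 0.86 ± 0.18 (SE; edgeR adjusted p = 0.00914). The call was lost in 1 of 17 alternatives, without the replicate 3 libraries of both groups (edgeR adjusted p = 0.0562), where the log2 fold change was 1.00. Without the replicate 1 libraries it was 0.78. Tcf4 lies on chromosome 18, from 69343429 to 69687967.

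No tested marker of plasmacytoid cells was called higher beside Tcf4, although Bcl11a, a regulator of these cells outside the marker list, was, as given below. Of 12 such markers 6 passed the filter on low counts, 0 were called higher and 2 were called lower. The called pair were Spib, an ETS factor of plasmacytoid cells, at 1.28 against 3.81 CPM, and Pacsin1 at 1.01 against 6.40 CPM. The Spib call was lost without the replicate 3 libraries of both groups (edgeR adjusted p = 0.0632). Without the replicate 1 libraries Runx2 was called lower too (edgeR adjusted p = 0.0489), so that 3 of the list were lower. The lectin Siglech, which defines the mouse cell type, had 3.34 counts summed over activated libraries and 0 over non-activated libraries, and Klk1, another marker, 0 and 2.01 counts. The summed level of the list was 569 to 869 TPM in activated and 726 to 980 TPM in non-activated libraries, most of it from Bst2, Irf7 and Runx2, which other cells express too. Because the RNA came from bulk cells, more cells with a gene and more RNA per cell cannot be told apart for any factor described here.

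Id2 and Tcf4 oppose each other, so their ratio was compared per library on the TPM scale. Id2 exceeded Tcf4 17.1, 16.1 and 17.9 times in activated libraries, against 24.1, 30.4 and 26.6 times in non-activated libraries. The activated ratios were all lower and lay close together. The log2 ratio averaged 4.09 ± 0.08 in activated and 4.74 ± 0.17 in non-activated cells (SD, n = 3 each), a difference of -0.66. An exact two-sided permutation test gave p = 0.1, the smallest p that 3 libraries against 3 allow (adjusted p = 0.3 over the 3 ratios tested), so this design cannot place it below 0.05. Other members of the families moved as follows. Of the E proteins, Tcf3 (E2A) was at 57.9 ± 3.01 against 37.9 ± 0.927 CPM (SD, n = 3 each; edgeR adjusted p = 0.000678), and Tcf12 (HEB) at 64.9 against 49.9 CPM. Tcf12 passed (edgeR adjusted p = 0.0451), but in only 4 of 17 alternatives, and not without the replicate 1 libraries (edgeR adjusted p = 0.0726). Of the other inhibitors, Id3 fell to 2.35 ± 0.625 CPM, against 6.84 ± 0.947 CPM in non-activated cells (edgeR adjusted p = 0.00224), Id1 had 1.44 against 0.703 CPM (edgeR adjusted p = 0.166), and Id4 had 1 count in all.

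**Figure D2:**
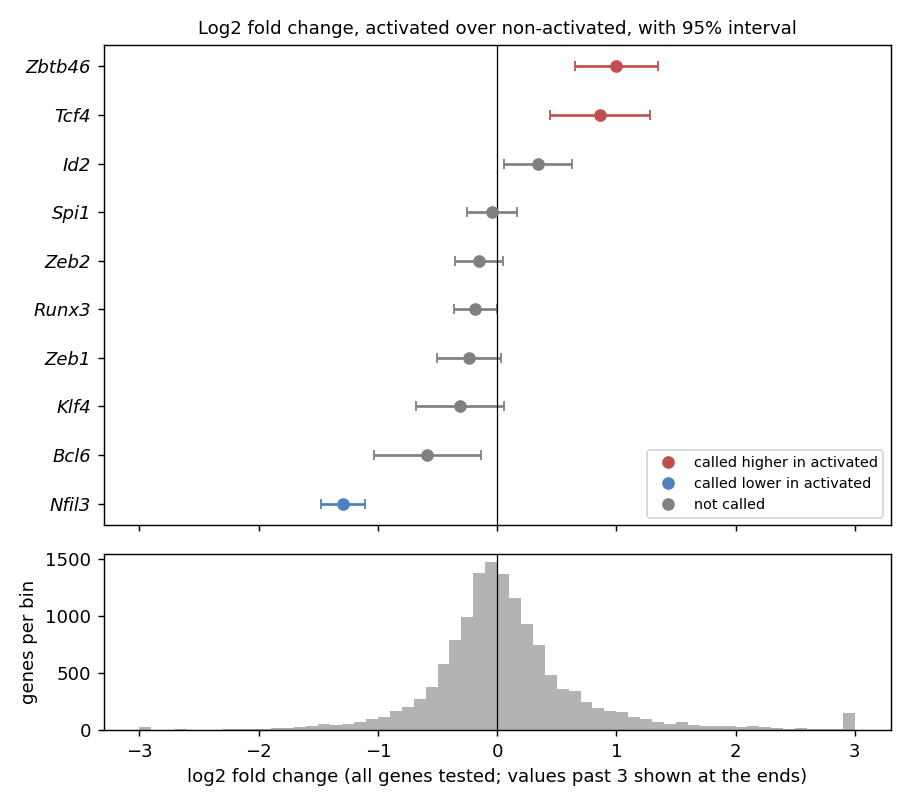
Upper panel: log2 fold change of each lineage factor, activated over non-activated, with its 95% interval from edgeR; red marks calls higher in activated cells, blue lower and grey no call. Lower panel: the same quantity over all 13946 genes tested, in bins of 0.1. Zbtb46 (1.00) and Tcf4 (0.86) are called higher, Nfil3 (-1.29) lower, and the other 7 are not called.

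Nfil3, a basic leucine zipper repressor needed for type 1 dendritic cells in mice (chromosome 13, 52967209 to 52982878), changed most among the 10. It had 126, 126 and 117 CPM in activated libraries and 318, 304 and 282 CPM in non-activated libraries. The groups were far apart and the spread within each was small. Means were 123 ± 4.81 against 301 ± 18 CPM (SD, n = 3 each), a log2 fold change of -1.29 ± 0.08 (SE; edgeR adjusted p = 2.39e-05), the 78th smallest p of all genes tested. It passed under each of the 17 alternatives, with log2 fold changes between -1.37 and -1.25. Tef, a relative that binds the same kind of DNA site and can activate where Nfil3 represses, fell to 31.8 ± 3.32 CPM, against 45.0 ± 3.28 CPM in non-activated cells (SD, n = 3 each; edgeR adjusted p = 0.00725). The Tef call was lost on the deposited TPM and without the replicate 2 libraries of both groups (adjusted p up to 0.231). Dbp had 0.916 against 1.49 CPM (edgeR adjusted p = 0.132), and Hlf was below the count filter.

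Bcl6, a BTB zinc finger repressor that supports type 1 cells (chromosome 16, 23965050 to 23988866), had 24.8, 17.2 and 26.2 CPM in activated cells and 38.5, 25.8 and 38.1 CPM in non-activated cells. The replicate 2 library was the lowest of each group, and the non-activated one lay just below activated replicate 3, the only overlap. Means of 22.7 ± 4.81 and 34.1 ± 7.20 CPM (SD, n = 3 each) gave a log2 fold change of -0.59 ± 0.20 (SE), just short of the threshold (edgeR adjusted p = 0.0566). With the replicate number as a block the adjusted p was 0.000585, and 6 of 17 alternatives called it, within 0.000585 to 0.186. Prdm1, which encodes Blimp-1, a factor that is known to repress Bcl6 and to be repressed by it, rose to 50.8 ± 4.51 CPM, against 25.3 ± 1.65 CPM in non-activated cells (SD, n = 3 each; edgeR adjusted p = 0.00019).

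Nfil3 and Bcl6 had the lowest fold changes of the 10. Sequences before a RefSeq start of each are shown because these are regions where a shared motif would be looked for. Each line gives the 250 bases before a RefSeq transcription start on GRCm38.p6, 5′ to 3′ on the gene's own strand (minus for both). They lie at chr13:52981040-52981289 for Nfil3 and chr16:23988853-23989102 for Bcl6, and capitals mark the match to GAGGAA, the core of a PU.1 site, searched on both strands. The Nfil3 window lies inside the gene span given above, which reaches 52982878, so it is not upstream of the whole gene. The lowest-numbered bases of the Bcl6 window also lie inside that gene's span, which reaches 23988866.
Nfil3: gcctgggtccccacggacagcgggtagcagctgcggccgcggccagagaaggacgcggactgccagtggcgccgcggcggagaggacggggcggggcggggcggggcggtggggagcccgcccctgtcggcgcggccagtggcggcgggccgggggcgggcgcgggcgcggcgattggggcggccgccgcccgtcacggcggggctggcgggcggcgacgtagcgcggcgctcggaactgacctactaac
Bcl6: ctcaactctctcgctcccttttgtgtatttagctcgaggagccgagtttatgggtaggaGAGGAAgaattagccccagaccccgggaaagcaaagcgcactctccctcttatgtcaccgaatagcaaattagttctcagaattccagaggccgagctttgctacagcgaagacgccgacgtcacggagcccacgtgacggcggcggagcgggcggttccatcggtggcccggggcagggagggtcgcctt
The Nfil3 window was 81.6% G and C, the Bcl6 window 58.4%, against a median of 52.4% over all such windows. The printed Bcl6 window held 1 GAGGAA match, 191 bases before the start, and the Nfil3 window none. Of 32851 mouse windows of this length, 23.3% held a match. Neither window matched TTANNTAA (NFIL3 and its relatives, 5.43% of windows), TGANTCA (AP-1, 6.75%), CAGGTG (E-box, 17.2%) or the longer interferon response and NF-kappaB patterns searched (2.98% and 17.6%). The window before another RefSeq start of Bcl6 (chr16:23981284-23981533, not printed) matched none of these patterns, GAGGAA included. A missing match says only that these letters are not in that window.

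Zeb2, a zinc finger repressor that promotes plasmacytoid and type 2 cells (chromosome 2, 44983512 to 45117442), had 197, 176 and 166 CPM in activated cells and 209, 200 and 190 CPM in non-activated cells. The ranges overlapped, and the log2 fold change of -0.15 (95% interval -0.35 to 0.05) did not pass (edgeR adjusted p = 0.236); it was -0.24 without activated replicate 1. On the TPM scale the same libraries were apart: 59.0, 57.8 and 55.6 TPM in activated cells, against 67.4, 81.3 and 70.2 TPM in non-activated cells. There the log2 difference was -0.34 and passed (limma adjusted p = 0.0442 with 0.1 added to each TPM). TPM divides by a transcript length weighted by the estimated abundance of each transcript, which for Zeb2 was 4623 to 4929 bases in activated and 3812 to 4567 bases in non-activated libraries. Zeb2os, an RNA gene that overlaps Zeb2, was at 7.26 to 10.5 CPM, at most 5.96% of Zeb2.

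Zeb1, the relative of Zeb2 (chromosome 18, 5591327 to 5775468), had 60.5, 44.5 and 55.9 CPM in activated cells and 65.5, 58.6 and 65.0 CPM in non-activated cells. The groups overlapped and the log2 fold change of -0.23 (95% interval -0.50 to 0.04) did not pass (edgeR adjusted p = 0.18). With the replicate block it did (edgeR adjusted p = 0.0367), and without activated replicate 2 the log2 fold change was -0.13. Its TPM values were 70.4, 21.6 and 51.2 in activated libraries and 81.5, 39.8 and 53.0 in non-activated libraries, a much wider spread than by counts. The length assigned to it varied 2.44-fold, from 1297 bases in non-activated replicate 1 to 3167 bases in activated replicate 2. In each group replicate 1 had the shortest length and replicate 2 the longest. The log2 ratio of Zeb2 to Zeb1 on TPM was highest in replicate 2 and lowest in replicate 1 of each group, and averaged 0.43 ± 0.88 in activated and 0.39 ± 0.65 in non-activated cells (SD, n = 3 each; exact two-sided permutation p = 0.9, adjusted p = 0.9).

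**Figure D3:**
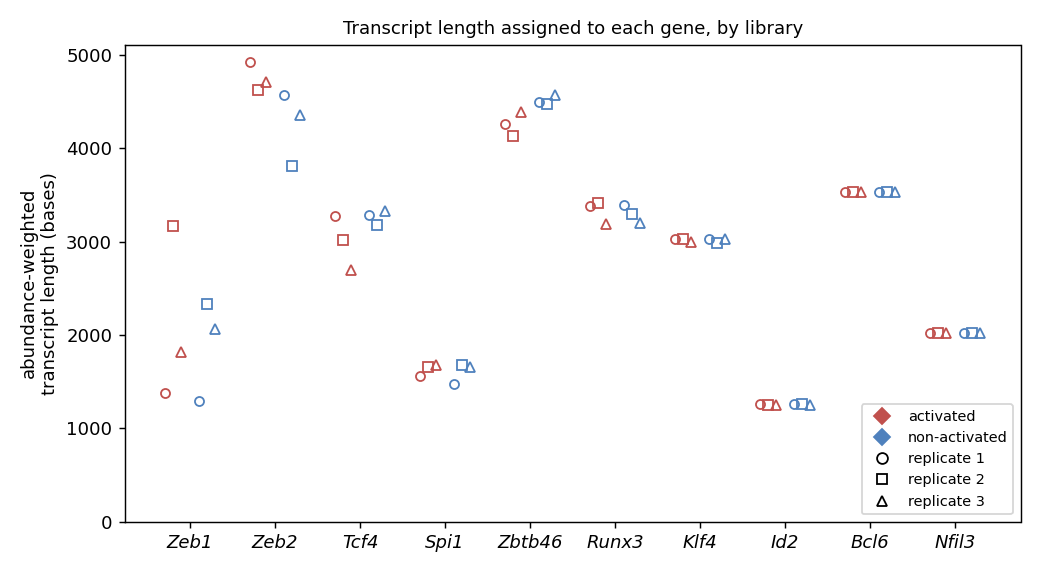
Abundance-weighted transcript length in bases that the deposited tables assign to each lineage factor in each library, activated left of non-activated, with symbols for the replicate number and an axis from 0. Zeb1 spans 1297 to 3167 bases, whereas Nfil3 is at 2026 bases throughout.

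Zbtb46 lengths were also apart between groups, 4136 to 4386 bases in activated and 4472 to 4569 bases in non-activated libraries, and its rise was slightly larger on TPM (log2 1.08). For Tcf4 the lengths were 2701 to 3275 bases in activated and 3180 to 3331 bases in non-activated libraries, which overlapped, and the TPM difference was log2 0.98. These lengths are estimates from 60 nt single reads, and no transcript was tested on its own. Expected counts were whole numbers in all 6 libraries for 6 of the 10 members (Zbtb46, Id2, Spi1, Nfil3, Klf4 and Bcl6, to within 0.005 of a count).

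Klf4, which a subset of type 2 dendritic cells requires in mice (chromosome 4, 55527137 to 55532475), had 20.1, 21.2 and 22.6 CPM in activated cells and 33.8, 23.4 and 22.1 CPM in non-activated cells. Non-activated replicate 1 was high and the other 5 libraries lay together. The log2 fold change of -0.31 (95% interval -0.68 to 0.06) did not pass (edgeR adjusted p = 0.188) and was -0.07 without the replicate 1 libraries of both groups. Runx3, a factor of Langerhans cells and type 2 cells (chromosome 4, 135120645 to 135177990), had 339, 310 and 315 CPM in activated cells and 368, 375 and 353 CPM in non-activated cells. All activated libraries were lower, by a small margin. The means of 321 ± 15.6 and 365 ± 11.2 CPM (SD, n = 3 each) gave a log2 fold change of -0.18 ± 0.08 (SE; edgeR adjusted p = 0.119). It passed only with library size as the sole scaling (edgeR adjusted p = 0.0383), which moved the median of all genes to -0.07. Its relative Runx1 had 90.3 ± 1.65 and 87.0 ± 8.32 CPM (SD, n = 3 each; edgeR adjusted p = 0.687). The log2 ratio of Runx3 to Runx1 on TPM was 1.73 in activated and 1.67 in non-activated cells (exact two-sided permutation p = 0.7, adjusted p = 0.9). That difference of 0.06 became -0.24 on CPM.

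The groups did not overlap in CPM for 5 of the 10 members, against 44.7% of all genes tested. Libraries with the same replicate number deviated together, and set side by side they gave 1 direction in all 3 pairs for 8 of the 10 members, Spi1 and Klf4 being the others, against 64.2% of all genes tested. Bcl6 differed by log2 -0.64, -0.59 and -0.54 in pairs 1 to 3, and Id2 by 0.46, 0.24 and 0.30. Nfil3 differed by -1.34, -1.27 and -1.26, a narrower range than that of Zbtb46 (1.39, 0.90 and 0.72). With the replicate block 3 members were called higher (Zbtb46, Tcf4 and Id2) and 3 lower (Nfil3, Bcl6 and Zeb1), against 2 and 1 without it. All genes tested gave 2787 and 2397 calls with the block, against 2216 and 1632 without it. With library size as the sole scaling the split of all genes turned to 1792 higher and 2274 lower, and every member but Spi1 kept its direction under each alternative.

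**Figure D4:**
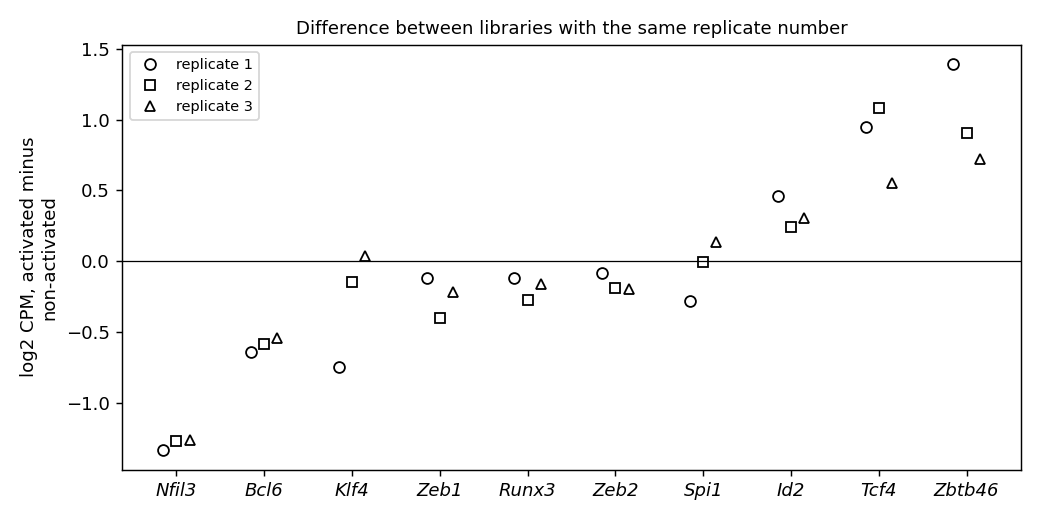
Difference in log2 CPM, activated minus non-activated, between the libraries that share a replicate number, for each lineage factor in order of its fold change. All 3 differences lie below 0 for Nfil3, Bcl6, Zeb1, Runx3 and Zeb2 and above 0 for Id2, Tcf4 and Zbtb46.

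Levels of different factors can be compared on the TPM scale. In activated cells Id2 came first at 968 ± 128 TPM, followed by Runx3 (150 ± 9.81) and Spi1 (131 ± 12.0), whose library ranges overlapped, and then Nfil3 (97.7 ± 1.47), all SD with n = 3. Nfil3 stood clear of the factors below it. Zeb2 (57.5 TPM), Tcf4 (56.8 TPM) and Zeb1 (47.7 TPM) could not be separated from each other, nor Zeb1 from Zbtb46 (32.1 TPM). Klf4 (11 TPM) and Bcl6 (9.95 TPM) overlapped at the bottom. In non-activated cells Id2 was again first at 770 ± 64.2 TPM, but Nfil3 was the second at 241 ± 4.02 TPM, clear of Runx3 (174 ± 9.82) and Spi1 (140 ± 11.3). Below these, Zeb2 (73.0 TPM) and Zeb1 (58.1 TPM) overlapped, Tcf4 (28.9 TPM) stood clear on both sides, and Zbtb46 (15.3 TPM), Bcl6 (15.1 TPM) and Klf4 (13.7 TPM) overlapped. Nfil3 thus ranked the second in non-activated and the fourth in activated cells.

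**Figure D5:**
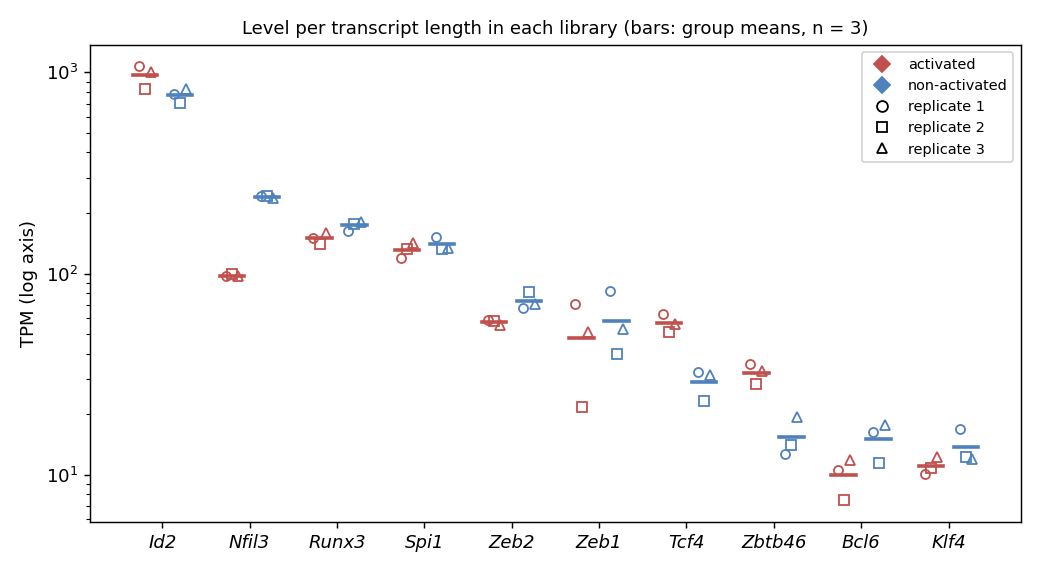
TPM of each lineage factor in each library on a log axis, ordered by the non-activated mean, activated left of non-activated; symbols give replicate numbers and bars group means (n = 3). Id2 is highest in both groups, at 968 and 770 TPM, and Nfil3 moves to 97.7 TPM in activated cells, against 241 TPM in non-activated cells.

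Other regulators known in dendritic cell development were read from a list of 25 genes, all tested, which shares no gene with the 10. Of these, 8 were called higher, 3 lower and 14 not at all, with a median log2 fold change of -0.07; without the replicate 3 libraries of both groups 3 were higher, and with the replicate block 7 were lower. Without the replicate 1 libraries 7 were higher and 5 lower. The 4 higher genes with the smallest p were Irf4, Prdm1, Batf and Bcl11a. Irf4, which type 2 cells need, was at 414 ± 23.8 against 168 ± 3.48 CPM (SD, n = 3 each; edgeR adjusted p = 2.07e-05). Batf, an AP-1 partner of Irf4, was at 65.7 ± 6.84 against 33.5 ± 3.55 CPM (edgeR adjusted p = 0.00044), and Bcl11a, a regulator of plasmacytoid cells and lymphocytes, at 3.12 ± 0.676 against 0.420 ± 0.292 CPM (edgeR adjusted p = 0.00447, lost at 0.0533 without the replicate 3 libraries). The lower genes included Spib, given above, and Nr4a3. Nr4a3, an orphan nuclear receptor that migration of dendritic cells depends on in mice, fell to 77.3 ± 28.6 CPM, against 191 ± 23.8 CPM in non-activated cells (edgeR adjusted p = 0.00403).

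A further list held 33 relatives, partners and corepressors of the 10 members, of which 29 were tested. It shares Etv6, Klf2, Runx2 and Spib with the list before. Of the tested genes 7 rose, 7 fell and 15 were not called, and the median log2 fold change was 0.05. The 4 higher genes with the smallest p were Klf3 (54.8 ± 2.88 against 27.4 ± 2.57 CPM), Tcf3 as given above, and the ETS factors Elf4 (162 ± 5.62 against 116 ± 9.65 CPM) and Etv6 (280 ± 24.1 against 194 ± 19.3 CPM), with edgeR adjusted p from 0.000179 to 0.00618. The 4 lower ones were the ETS factor Ets2 (38.8 ± 4.86 against 88.7 ± 8.01 CPM), the TGF-beta-induced repressor Klf10 (50.4 ± 3.25 against 83.8 ± 8.37 CPM), Id3 and Tef, with edgeR adjusted p from 0.000182 to 0.00725. The calls of Elf4 and Etv6 were lost without the replicate 3 libraries of both groups (edgeR adjusted p up to 0.0744). That of Elf4 was also lost without the replicate 2 libraries of both groups. Without the replicate 3 libraries 2 of the list were higher and 4 lower, and without the replicate 1 libraries 4 were higher and 7 lower.

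Several members are also expressed by T cells, among them Id2, Nfil3, Bcl6, Zeb1 and Runx3, so T cell markers are given beside them. Of 20 T cell markers 11 were tested, 2 were called higher and 1, Il7r, lower. Without the replicate 1 libraries 3 were higher and 1 lower, and Il7r was no longer called (edgeR adjusted p = 0.0673). Their summed level without Trac and Trbc2, left out after the levels were seen, was 225 to 266 TPM in activated and 279 to 298 TPM in non-activated libraries, nearly all from Il7r, which was at 195 and 246 TPM. The kinase Lck had 139, 82 and 96 counts in activated libraries, against 18, 29 and 27 in non-activated libraries, which did not overlap. Cd3e had 51, 5 and 10 counts in activated libraries, against 4, 4 and 6 in non-activated libraries, and Cd2 37, 8 and 7 against 0, 1 and 0. Most of the Cd3e and Cd2 counts were thus in activated replicate 1. Over replicates 2 and 3 together the activated counts were still higher, at 178 against 56 for Lck, 15 against 1 for Cd2 and 15 against 10 for Cd3e. Trac was not called with all libraries, but was called higher without the replicate 1 libraries (log2 fold change 2.21, edgeR adjusted p = 0.0197). With Trac the sum reached 41723 and 41640 TPM in the replicate 1 libraries. The part of T cell RNA in the members' values was not tested. Of 10 B cell markers, 5 were tested and 3 called higher, and summed levels were 120 to 139 TPM against 95.9 to 107 TPM, mostly Blnk. The 3 were Blnk, Fcer2a, the low-affinity IgE receptor, at 5.75 against 0.164 CPM, and Cd79b, of the B cell receptor, at 1.96 against 0.134 CPM (edgeR adjusted p = 0.000201 and 0.00304), while Ms4a1, which encodes CD20, was at most 0.23 TPM. Of the monocyte and macrophage markers, the most abundant were Lyz2 at 1330 and 1643 TPM, Cd14 at 1221 and 1125 TPM and Adgre1 at 315 and 279 TPM, while C1qa was at 6.70 and 5.39 TPM and Cx3cr1 at 0.0767 and 0.0400 TPM. Of the 11 tested 1 rose and 2 fell (1 and 1 without the replicate 1 libraries), and summed levels were 2647 to 4221 TPM against 3314 to 4156 TPM.

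Markers of the conventional subsets moved unevenly. Of 12 genes of type 1 cells 9 were tested, 4 were called higher and 0 lower, with summed levels of 890 to 1150 TPM in activated and 694 to 829 TPM in non-activated libraries, most of it Irf8, Cd24a and Batf3. Clec9a, which defines the subset, was at 2.52 and 2.47 TPM and was not called. Xcr1, a chemokine receptor of the same subset, was called higher at 3.40 against 1.52 CPM (edgeR adjusted p = 0.0189), in 12 of 17 alternatives, and Tlr3 in 11 of 17. The other calls were Irf8, at 741 against 507 TPM, and Cd24a, at 113.5 against 61.7 TPM. That of Irf8 was lost without the replicate 3 libraries of both groups (edgeR adjusted p = 0.0803). Over the 9 tested genes the median log2 fold change was -0.06, and 4 were above 0. Of 11 genes of type 2 cells 8 were tested, with 3 higher and 3 lower (3 and 2 without the replicate 1 libraries), and summed levels were 616 to 672 TPM against 480 to 505 TPM, led by Sirpa, Itgam and Irf4. Cd209a, which marks type 2 cells from bone marrow culture, had 0 counts in activated and 2 in non-activated libraries. Neutrophil, NK cell and mast cell lists held 1 tested gene between them, Klrd1, which was not called with all libraries and was called lower without the replicate 1 libraries (edgeR adjusted p = 0.0339).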

How the data were processed

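Per the file headers, the authors deposited 1 RSEM-style gene table per RNA library, with expected counts (estimated reads per gene), TPM, FPKM and an abundance-weighted transcript length, which is one of the other values used. The submitters' processing notes name GRCm38; no source used here gives the aligner. Per the labels' protocols, 200 ng of total RNA gave 60 nt single reads. Of the 41813 Ensembl genes 41597 matched a symbol.

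Rounded expected counts went into edgeR 4.0.16 under R 4.3.3 (filterByExpr, TMM, glmQLFit and glmQLFTest, group as the only term, Benjamini-Hochberg over 13946 genes, threshold 0.05); the SE is the log2 fold change divided by the root of F. Ratios used log2(TPM + 0.1) and exact permutation tests (scipy 1.17.1). DESeq2 1.42.0 and limma 3.58.1, limma on log2 of the deposited TPM, were alternatives, as were other scalings, filters, pseudocounts, a replicate block and left-out libraries; the deposited FPKM served in 1 alternative for the ratios. The tests were checked on simulated counts, drawn independently for each library and with few genes changed. That check did not cover the shared deviation of libraries with the same replicate number.

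The titles share replicate numbers. Same-numbered libraries deviated from their group means together (correlations of 0.398, 0.313 and 0.187) and other pairs did not (-0.315 to 0.0402). Deviations within a group add to 0, so these correlations are not independent of each other. By these data, not by the labels, the numbers may pair the libraries.

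Members and lists were chosen with earlier results of these data known. All members are named, as are, except for an item not reported here, the 4 called genes of each regulator list with the smallest p in each direction, both genes of each ratio and the 3 marker genes of highest TPM per list; family relatives and defining markers beyond these were picked after their values were seen.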

Additional observations from a re-analysis of the deposited data

How the results depend on the processing

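No alternative changed the direction of Zbtb46, Tcf4, Nfil3, Id2, Bcl6, Klf4, Zeb1, Zeb2 or Runx3. Where a call changed, the cause was not tested. With the replicate block, Id2 (log2 0.33), Bcl6 (-0.59) and Zeb1 (-0.24) passed, 3 members and 7 other regulators were called lower; the block took no call from a member. In DESeq2 Id2 (0.33) and Bcl6 (-0.60) passed, with 2 members and 5 other regulators lower. With library size alone Bcl6 (-0.66) and Runx3 (-0.26) passed and 3 members were lower. With no filter Bcl6 (-0.61) passed, with 2 members and 5 other regulators lower. On log2(TPM + 0.1) and log2(TPM + 1) Zeb2 passed (-0.34 and -0.33), with 2 members and 4 family partners lower. Without 1 library, or without both of 1 replicate number, all genes called ranged from 1185 to 1956 higher and 600 to 1673 lower (1277 and 775 without both replicate 2 libraries, 1061 lower without non-activated replicate 2), members from 1 to 3 higher and 1 to 2 lower, other regulators from 3 to 8 and 2 to 5, and family partners from 2 to 6 and 4 to 8. Log2 fold changes ranged from 0.21 to 0.43 (Id2), -0.14 to 0.047 (Spi1, -0.12 to 0.014 without 1 activated or non-activated library, the highest without activated replicate 1, and 0.047 without both replicate 1 libraries), 0.65 to 1.00 (Tcf4), -0.75 to -0.44 (Bcl6), -0.35 to -0.13 (Zeb1) and -0.24 to -0.11 (Zeb2). The Zeb2 to Zeb1 difference of 0.04 ranged from -0.45 to 0.38 and turned without activated replicate 2 (-0.45), non-activated replicate 1 (-0.29) or both replicate 2 libraries (-0.13). The Runx3 to Runx1 difference ranged from -0.06 to 0.17 (to 0.16 without 1 library), and turned on CPM (-0.24), without activated replicate 3 (-0.014), non-activated replicate 1 (-0.035) or both replicate 1 libraries (-0.060). Each member had at least 351 counts in each library; whether depth or the spread between libraries limited the calls was not tested.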
